A study of Mus musculus with 18 samples.

Results

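The IAPEY group consists of the repeat rows whose name begins with IAPEY, and it holds 10 of the 1365 repeat rows measured in each cell type. All 10 are ERVK elements by class. There are 4 internal rows (IAPEy-int, IAPEY3-int, IAPEY4_I-int and IAPEY5_I-int), and 6 rows of long terminal repeats (LTRs), which are IAPEY_LTR, IAPEY2_LTR, IAPEY3_LTR, IAPEY3C_LTR, IAPEY4_LTR and IAPEY5_LTR. The rows were taken by name alone, and all 10 carried an adjusted p in all 3 tables. A row sums the reads of every genomic copy of its element, so single copies are not resolved.

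The study treated mouse cells with the HSP90 inhibitor NVP-AUY922 (HSP90 is a chaperone that helps other proteins fold) and sequenced poly(A) RNA from 18 libraries, 3 for each of 6 groups. Embryonic stem cells (ESCs, strain background 129S1/CASTEiJ, 2i medium) were left untreated or received 100 nM for 24 h. Bone-marrow-derived macrophages (BALBC/C57BL6) were left untreated or received 500 nM for 24 h, and neuronal progenitor cells (NPCs, 129S1/CASTEiJ, grown with EGF and FGF) were left untreated or received 50 nM for 24 h. Cell type and dose change together, and the macrophages also differ in strain, so their parts in a difference between cell types cannot be told apart. The labels do not give the sex of the cells, nor whether the libraries of a group came from separate cultures or animals; the p-values then measure the spread between libraries, which may be technical. Markers that would check the labelled cell types are genes, and genes were not analysed here.

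Intracisternal A particles (IAPs) are endogenous retroviruses of the mouse that bud into the endoplasmic reticulum instead of leaving the cell, and some copies still move to new sites. Their internal part encodes the structural and enzymatic proteins of the particle, and the flanking LTRs hold the promoter and the signal for polyadenylation. IAPE elements are relatives of IAPs that carry an envelope gene, and amplified copies of IAPE are known from the mouse Y chromosome. In stem cells and many somatic cells, IAP copies are silenced by DNA methylation and by repressive histone marks set through KRAB zinc finger proteins and their partner KAP1.

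For each row the authors deposited a log2 fold change between the 3 treated and 3 untreated libraries with its standard error (SE, the figure after ± in the text). Nothing used here says which group is in the numerator, so rows are placed only on a positive or a negative side, with no statement on which side the treated cells are. Sides can be compared between rows of the same table without that knowledge. A row is called here where the authors' adjusted p was under 0.05. Values per library, and with them the overlap of single libraries, were not analysed here. In bulk RNA, fewer cells that transcribe an element and less RNA from it per cell cannot be told apart.

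In ESCs the IAPEY group lay mostly on the positive side, in macrophages its calls were all negative, and in NPCs it lay on both sides. The authors' deposited table for ESCs called 5 of the 10 rows positive and 0 negative, where 10.2% of all 1132 tested rows were called positive and 12.0% negative. In macrophages 0 rows were positive and 2 negative in the authors' deposited table, against 13.3% and 12.5% of 1255 tested rows. The NPC calls in the authors' deposited table were 3 positive and 1 negative, against 4.96% and 6.81% of 1249 tested rows. The macrophage share of 2 in 10 is near the background, and the ESC and NPC shares on the positive side are above it. Calls were more common among the tested ERVK rows outside the group than over all rows. There 53 were positive and 58 negative of 262 in ESCs, 49 and 51 of 267 in macrophages, and 25 and 22 of 266 in NPCs. The median log2 fold change of the group was 0.30 for ESCs, -0.19 for macrophages and 0.16 for NPCs, computed from the authors' deposited table of each, and the medians over all tested rows were 0.0019, -0.0129 and 0.0009. The 10 rows are no independent replicates, since related copies can share reads. Changes were small: of the 30 values only 1, IAPEY3C_LTR in NPCs, lay beyond 1 on the log2 scale.

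**Figure D1:**
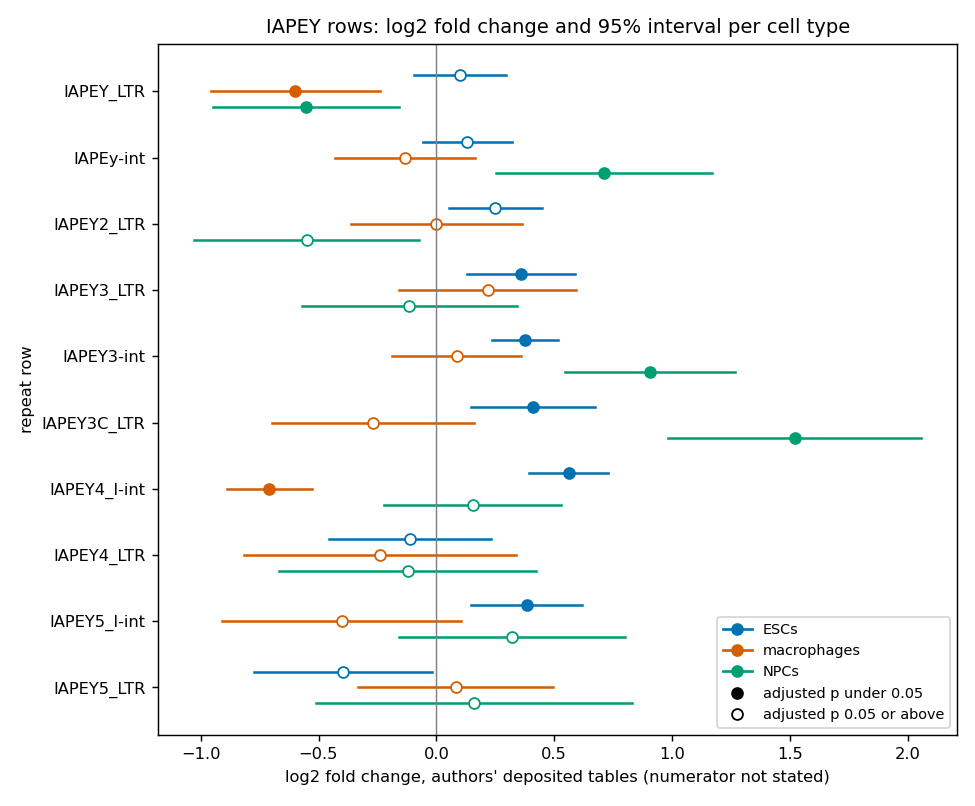
Log2 fold change (x axis, from the authors' deposited tables, numerator not stated) of the 10 IAPEY rows (y axis) in ESCs, macrophages and NPCs; points are estimates, bars 95% intervals from the SE, and filled points have an adjusted p under 0.05. IAPEY4_I-int is called on the positive side in ESCs (0.56) and on the negative side in macrophages (-0.71), and IAPEY3C_LTR in NPCs (1.52) lies farthest from 0.

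IAPEY4_I-int, an internal row, was called on opposite sides in ESCs and macrophages. Its ESC value in the authors' deposited table was 0.56 ± 0.09 (1.47-fold), with an adjusted p of 1.7e-09 from DESeq2. This was the largest value of the group in ESCs, at rank 70 from the positive end of the 1132 tested rows. The macrophage value in the authors' deposited table was -0.71 ± 0.09, which is 1.63-fold the other way, with an adjusted p of 6.68e-13. That was the smallest adjusted p of the group in any table. The NPC value in the authors' deposited table was 0.15 ± 0.19 with an adjusted p of 0.740, and its 95% interval ran from -0.22 to 0.53. The LTR row of the same name stem, IAPEY4_LTR, was called in no table. Its values in the authors' deposited table of ESCs, macrophages and NPCs were -0.11 ± 0.18, -0.24 ± 0.29 and -0.12 ± 0.28. It was the only row of the group on the negative side in all 3 tables, each time within 1 SE of 0.

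The IAPEY3 rows were called on the positive side in ESCs, and the internal row and IAPEY3C_LTR, an LTR variant, also in NPCs. For IAPEY3-int the authors' deposited table of ESCs gives 0.38 ± 0.07 (1.30-fold, adjusted p 1.76e-06 from DESeq2). The same row had 0.90 ± 0.18 in the authors' deposited table of NPCs (1.87-fold, adjusted p 2.77e-05). Its macrophage value of 0.09 ± 0.14 in the authors' deposited table did not pass, with an adjusted p of 0.730. IAPEY3-int was the only row of the group on the positive side in all 3 tables.

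IAPEY3C_LTR had the largest value of the whole group. This was its NPC value of 1.52 ± 0.27 in the authors' deposited table (2.87-fold), with a 95% interval of 0.98 to 2.06 on the log2 scale and an adjusted p of 1.3e-06. It stood at rank 15 from the positive end of the 1249 tested rows, although its base mean (the mean of normalised reads over the 6 libraries) was only 68.2. In ESCs it lay at 0.41 ± 0.13 (adjusted p 0.0132) and in macrophages at -0.27 ± 0.22 (adjusted p 0.418) in the authors' deposited table of each. IAPEY3_LTR, the LTR row that shares the stem of IAPEY3-int, was called in ESCs at 0.36 ± 0.12 (adjusted p 0.0133) in the authors' deposited table. It was not called at 0.22 ± 0.19 in macrophages or at -0.12 ± 0.23 in NPCs in the authors' deposited table of each. In NPCs the IAPEY3-named LTR rows thus stood apart, with 95% intervals of -0.57 to 0.34 for IAPEY3_LTR and 0.98 to 2.06 for IAPEY3C_LTR. They were not tested against each other, since both come from the same libraries.

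IAPEy-int and IAPEY_LTR, the rows whose names carry no number, were called on opposite sides in NPCs. IAPEy-int lay there at 0.71 ± 0.23 in the authors' deposited table (1.64-fold, adjusted p 0.0258). IAPEY_LTR had -0.55 ± 0.20 in that same authors' deposited table (1.47-fold, adjusted p 0.0490). Their 95% intervals, 0.25 to 1.17 and -0.95 to -0.16, did not overlap. The IAPEY_LTR call was the weakest of the NPC table, with the smallest absolute Wald statistic among called rows, 2.76, and it was lost (adjusted p 0.0521) when the adjustment covered all rows with a p. In macrophages IAPEY_LTR was also called negative, at -0.60 ± 0.18 in the authors' deposited table (1.51-fold, adjusted p 0.00623), and IAPEy-int was not, at -0.13 ± 0.15 (adjusted p 0.595). In ESCs neither passed, at 0.13 ± 0.10 for IAPEy-int and 0.10 ± 0.10 for IAPEY_LTR in the authors' deposited table. These ESC estimates were among the more precise of the group: the 95% intervals were -0.06 to 0.32 and -0.10 to 0.30, at base means of 25806 and 2844.

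The IAPEY5 rows and IAPEY2_LTR held a single call between them. IAPEY5_I-int was called in ESCs at 0.38 ± 0.12 in the authors' deposited table (1.30-fold, adjusted p 0.00915). It lay at -0.40 ± 0.26 in macrophages and 0.32 ± 0.24 in NPCs in the authors' deposited table of each, with adjusted p of 0.275 and 0.555. IAPEY5_LTR was called nowhere, at -0.39 ± 0.19 for ESCs, 0.08 ± 0.21 for macrophages and 0.16 ± 0.34 for NPCs in the authors' deposited table of each. Its ESC value had an unadjusted p of 0.0404 and an adjusted p of 0.135. IAPEY2_LTR, which has no internal row of its own stem, lay at 0.25 ± 0.10 in ESCs in the authors' deposited table and just missed the threshold, with an adjusted p of 0.0585. It lay at -0.0004 ± 0.1844 in macrophages and at -0.55 ± 0.24 in NPCs (adjusted p 0.140) in the authors' deposited table of each.

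**Figure D2:**
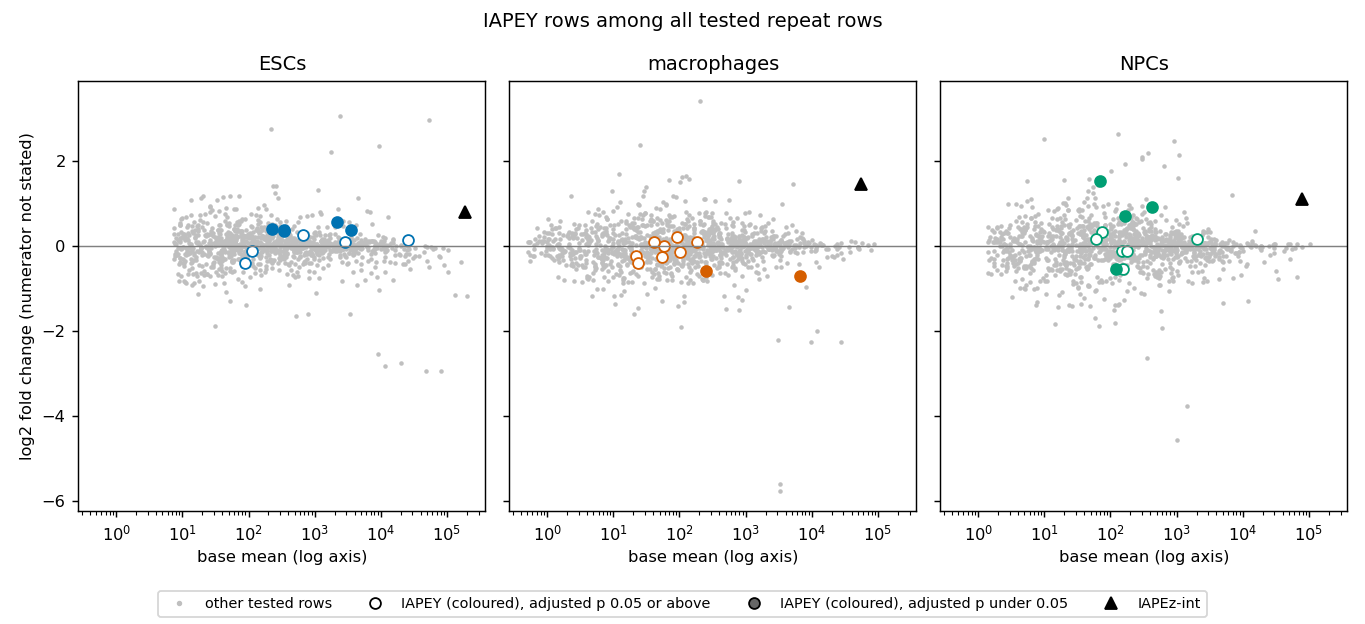
Log2 fold change (y axis, numerator not stated) against base mean in normalised reads (x axis, log scale) for all tested repeat rows in grey, the IAPEY rows as circles (filled where the adjusted p was under 0.05) and IAPEz-int as a black triangle, 1 panel per cell type. In macrophages IAPEY4_I-int (base mean 6718) lies below 0 while IAPEz-int lies above it at 1.45, and in NPCs IAPEY3C_LTR (base mean 68.2) stands at 1.52.

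By role, the estimates of the internal rows lay above 0 in ESCs and NPCs, though not all were called, and LTR rows were mixed. Of all tested rows, 50.4% lay above 0 for ESCs, 48.6% for macrophages and 50.1% for NPCs, and the shares called on each side are those given above (10.2% positive in ESCs, 4.96% positive in NPCs). In ESCs all 4 internal rows lay above 0 and 3 were called positive, with a median of 0.38 from the authors' deposited table, while 4 of 6 LTR rows lay above 0 and 2 were called, with a median of 0.18. In NPCs all 4 internal rows again lay above 0 and 2 were called positive, with a median of 0.51 from the authors' deposited table. Only 2 of the 6 NPC LTR rows lay above 0, with 1 called on each side and a median of -0.12 from the authors' deposited table. In macrophages 1 of 4 internal and 2 of 6 LTR rows lay above 0, with 1 negative call in each role and medians of -0.27 and -0.12 from the authors' deposited table. No test was made between the roles, which share libraries and may share reads. The roles also differed in precision. SEs ran from 0.07 to 0.12 for internal and from 0.10 to 0.19 for LTR rows in ESCs. In NPCs they ran from 0.18 to 0.24 and from 0.20 to 0.34. Calls are therefore not counted on equal terms in both roles. Some values above 0 were also small beside their error, such as IAPEY4_I-int in NPCs at 0.15 ± 0.19.

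Within 4 stems an internal row can be set beside an LTR row. The pair IAPEy-int and IAPEY_LTR and the pair IAPEY3-int and IAPEY3_LTR had nearly equal values in ESCs, where the internal minus the LTR value was 0.03 and 0.02 from the authors' deposited table. In NPCs the same pairs lay 1.26 and 1.02 apart by the authors' deposited table, each with the internal row on the positive and the LTR row on the negative side. The IAPEY4 and IAPEY5 pairs showed their widest gaps in ESCs, at 0.67 and 0.78 from the authors' deposited table. In macrophages both of these internal rows lay below their LTR rows, by -0.47 and -0.48 from the authors' deposited table. An LTR row also counts solitary LTRs, which have no internal part, so that a gap inside a pair does not refer to the same copies.

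**Figure D3:**
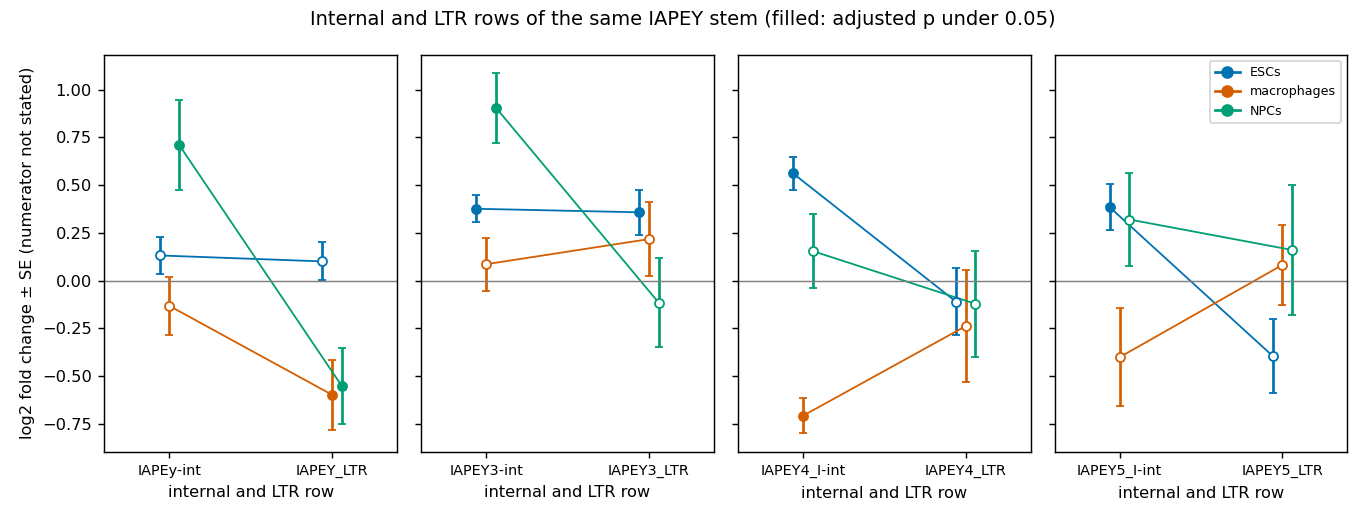
Log2 fold change ± SE (y axis, numerator not stated) of the internal and the LTR row (x axis) of each of 4 name stems, with a line for each cell type and filled points for an adjusted p under 0.05. In NPCs the lines of the IAPEY and IAPEY3 stems join points 1.26 and 1.02 apart, and in ESCs they are almost level.

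Most reads of the group came from IAPEy-int in ESCs and from IAPEY4_I-int in macrophages and NPCs. Base means are sums over copies and are not divided by length, and each table was normalised by itself, so only shares within a table are given side by side. In ESCs IAPEy-int held 71.4% of the base mean summed over the group in the authors' deposited table, IAPEY3-int 9.71%, IAPEY_LTR 7.87% and IAPEY4_I-int 6.07%. In macrophages IAPEY4_I-int held 89.1% by the authors' deposited table and IAPEy-int 1.35%. In NPCs IAPEY4_I-int held 58.8%, IAPEY3-int 12.6% and IAPEy-int 4.92% by the authors' deposited table. The row with most reads in ESCs, IAPEy-int at rank 29 of 1365 rows by base mean, stood at rank 626 in macrophages and 557 in NPCs. IAPEY4_I-int had the ranks 222, 58 and 161, in the order ESCs, macrophages and NPCs. These shares pool treated and untreated libraries and have no error, since values per library were not analysed here.

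The group as a whole took 14.2% of the base mean of all 25 IAP rows for ESCs, 9.83% for macrophages and 3.60% for NPCs, summed from the authors' deposited tables. Of the base mean of all 1365 repeat rows it took 0.941%, 0.379% and 0.163%. Internal rows made up 88.2% of the group's base mean in ESCs, 93.1% in macrophages and 78.5% in NPCs, from the authors' deposited tables. IAPEy-int had 9.07 times the base mean of IAPEY_LTR in ESCs, 0.406 times in macrophages and 1.37 times in NPCs. IAPEY4_I-int had 19.3, 310.3 and 11.4 times that of IAPEY4_LTR, in the same order, and the macrophage ratio rests on an LTR base mean of 21.7 in the authors' deposited table. The sources used here do not say how reads that fit several copies or rows were assigned, and ESCs and NPCs carry a CASTEiJ genome in part.

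**Figure D4:**
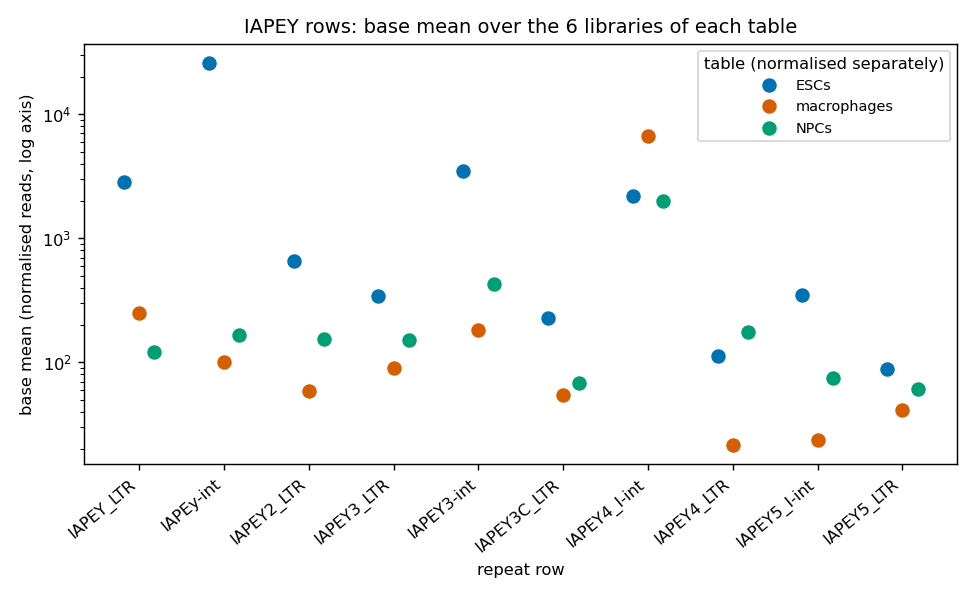
Base mean in normalised reads (y axis, log scale) of the 10 IAPEY rows (x axis) in the authors' deposited tables of ESCs, macrophages and NPCs; each point is the mean over 6 libraries and has no error bar, and each table was normalised separately. IAPEy-int is the row with most reads in ESCs (25806), and IAPEY4_I-int in macrophages (6718) and NPCs (1996).

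Precision differed between the tables and limits what could be called. The median SE of the group was 0.11 for ESCs, 0.19 for macrophages and 0.24 for NPCs, from the authors' deposited tables. Over all tested rows it was 0.14, 0.17 and 0.27, so the group was measured more precisely in ESCs and NPCs and less so in macrophages. At the weakest Wald statistic that was called in each table, IAPEY3-int would have passed at an absolute log2 fold change of 0.18 in ESCs, 0.35 in macrophages and 0.51 in NPCs. For IAPEY5_LTR the same limits were 0.49, 0.53 and 0.94. The ESC values of IAPEY3_LTR (0.36), IAPEY3C_LTR (0.41) and IAPEY5_I-int (0.38), from the authors' deposited table, were therefore of a size that was not detectable for these rows in macrophages or NPCs.

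Whether a row differed between cell types was tested on the difference of its log2 fold changes, with a normal two-sided p adjusted over all rows tested in both tables. This takes the tables as oriented alike, which no source used here states. Between ESCs and macrophages 4 of 10 rows passed, where 23.7% of all 1124 rows did. IAPEY4_I-int had the largest gap, with ESCs higher by 1.27 ± 0.13 (adjusted p 5.7e-22), followed by IAPEY5_I-int at 0.78 ± 0.28 (0.0282), IAPEY_LTR at 0.70 ± 0.21 (0.00552) and IAPEY3C_LTR at 0.68 ± 0.26 (0.0374). In each of these 4 the ESC value was positive and the macrophage value negative, but only IAPEY4_I-int was called in both cell types. By the adjusted p of DESeq2, IAPEY_LTR was not called in ESCs (0.555). Nor were IAPEY5_I-int (0.275) and IAPEY3C_LTR (0.418) called in macrophages. A test of the difference favours rows on opposite sides, and their share among all rows that passed was not counted.

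Between ESCs and NPCs 3 of 10 rows passed, against 12.6% of 1126 rows. IAPEY3C_LTR lay lower in ESCs than in NPCs by -1.11 ± 0.30 (adjusted p 0.00374), while IAPEY2_LTR and IAPEY_LTR lay higher in ESCs by 0.80 ± 0.26 (0.0233) and 0.65 ± 0.22 (0.0309). IAPEY3-int missed the threshold at -0.53 ± 0.20 (0.0557). With the difference taken between Wald statistics in place of fold changes, the IAPEY3C_LTR difference did not pass (adjusted p 0.245). That setting let IAPEY4_I-int pass for ESCs and NPCs (7.3e-04) and IAPEY3-int for ESCs and macrophages (0.00556). A Wald statistic is a change over its SE, so this compares changes relative to their precision. It cannot decide whether the fold changes themselves differ. Between macrophages and NPCs 4 of 10 rows passed, against 12.4% of 1222 rows, and all 4 lay lower in macrophages. These were IAPEY3C_LTR at -1.79 ± 0.35 (adjusted p 1.4e-05), IAPEY4_I-int at -0.86 ± 0.21 (0.00122), IAPEy-int at -0.84 ± 0.28 (0.0243) and IAPEY3-int at -0.82 ± 0.23 (0.00637).

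When 1 table of a pair had its sign turned, 4 of these 11 differences still passed. They were IAPEY3C_LTR between ESCs and NPCs (adjusted p 8.5e-09) and between macrophages and NPCs (0.00316), IAPEY3-int between macrophages and NPCs (2.6e-04), and IAPEY4_I-int between macrophages and NPCs (0.0465). For these the sizes of the changes differed whichever way the tables point. The other 7, among them IAPEY4_I-int between ESCs and macrophages (adjusted p 0.424 when turned), rest on a common orientation of the tables. With the sign turned, 2 of 10 IAPEY rows passed between ESCs and macrophages, against 314 of all 1124 rows. Between ESCs and NPCs 4 of 10 then passed, against 182 of 1126, and between macrophages and NPCs 4 of 10, against 243 of 1222. Some of these passed only when turned and are named in the last section.

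A comparison with IAPEz-int, the internal row with the highest base mean of all IAP rows in each table, needs no such assumption, because both rows come from the same table. IAPEz-int lay at 0.80 ± 0.10 for ESCs, 1.45 ± 0.14 for macrophages and 1.10 ± 0.29 for NPCs in the authors' deposited table of each. In ESCs 8 IAPEY rows, the 5 called ones included, lay on the side of IAPEz-int. Of all tested ESC rows 50.4% lay on that side and 10.2% were called there. In macrophages 7 IAPEY rows lay on the opposite side, both called ones among them. Of all tested rows 51.4% lay on that side and 12.5% were called there, so the count of calls is near the background. The side counts of 8 in ESCs and 7 in macrophages are above the shares of all rows, but related rows are no independent replicates. In macrophages the 95% interval of IAPEY4_I-int was -0.89 to -0.53 and that of IAPEz-int 1.17 to 1.74. In NPCs 6 IAPEY rows lay on the side of IAPEz-int, 3 of them called, and 4 on the other, 1 of them called. All tested NPC rows were split 50.1% and 49.9%, with 4.96% and 6.81% called.

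Among the 15 IAP rows outside the group, 10 were called positive and 1 negative in ESCs, 7 and 4 in macrophages, and 7 and 0 in NPCs, in the authors' deposited table of each. Over all tested rows the shares were 10.2% and 12.0%, 13.3% and 12.5%, and 4.96% and 6.81%. The medians of these 15 rows were 0.45, 0.13 and 0.86, each above that of the IAPEY rows (0.30, -0.19 and 0.16). IAP1-MM_I-int, an internal row, lay at 1.32 ± 0.09, 1.05 ± 0.15 and 2.46 ± 0.19 in ESCs, macrophages and NPCs in the authors' deposited tables. IAP-d-int, also an internal row, was the IAP row farthest on the negative side in macrophages, at -0.87 ± 0.13 in the authors' deposited table (adjusted p 6.6e-10), beyond IAPEY4_I-int at -0.71. It was not called in ESCs (0.19 ± 0.09) or NPCs (-0.35 ± 0.16) by the authors' deposited tables. Over the 273 ERVK rows outside the group, the medians of the tested rows were -0.01, -0.02 and 0.09.

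**Figure D5:**
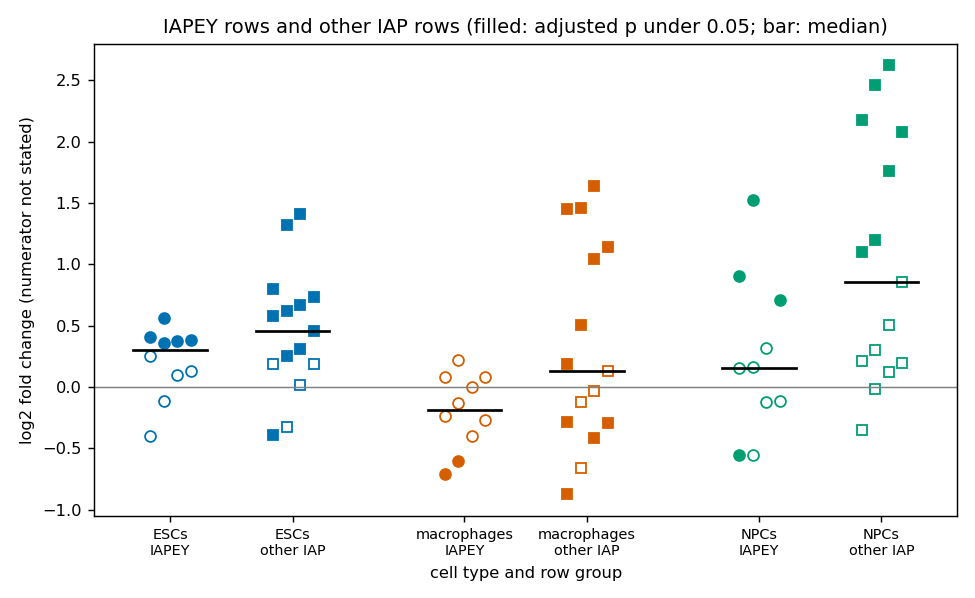
Log2 fold change (y axis, numerator not stated) of the 10 IAPEY rows (circles) and the 15 other IAP rows (squares) in each cell type (x axis); filled symbols have an adjusted p under 0.05, black bars are medians, and the sideways spread has no meaning. The IAPEY medians (0.30, -0.19 and 0.16) lie under those of the other IAP rows (0.45, 0.13 and 0.86) in ESCs, macrophages and NPCs.

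MURVY, a retrovirus known from the mouse Y chromosome together with IAPE copies, was called in no table. MURVY-int lay at -0.08 ± 0.16, 0.20 ± 0.25 and 0.57 ± 0.35, and MURVY-LTR at 0.09 ± 0.10, -0.15 ± 0.10 and 0.01 ± 0.18, in ESCs, macrophages and NPCs in the authors' deposited tables. The base means of MURVY-int were only 29.0 and 18.5 in macrophages and NPCs by the authors' deposited tables, so that moderate changes were not detectable there.

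The 3 rows whose log2 fold changes lay nearest to those of IAPEY4_I-int were no ERVK elements. Among 1111 rows outside the group tested in all 3 tables, MER63B lay nearest, at a Euclidean distance of 0.09 over the 3 cell types. MER63B, a DNA transposon by class, had values of 0.55 for ESCs, -0.71 for macrophages and 0.06 for NPCs in the authors' deposited tables, and was called in ESCs and macrophages (adjusted p 0.00565 and 6.6e-08). L1M3a, a LINE, and MamGypLTR3a, a Gypsy LTR, followed at distances of 0.16 and 0.23, at base means of at most 37.3. For IAPEY3C_LTR the nearest rows were LTR40A1 (ERVL), Charlie6 (a DNA transposon) and RLTR20B5_MM (ERVK), at larger distances of 0.36, 0.42 and 0.51. All 3 were called in NPCs alone, at 1.23, 1.43 and 1.87 in the authors' deposited table. A distance over 3 values describes these tables only.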

How the data were processed

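Poly(A) RNA was sequenced paired-end from stranded libraries, per the labels' protocols. The submitters' processing notes list DESeq2, featureCounts, TopHat2 2.0.13, Bowtie2, Trim Galore and deepTools and the build mm10, without roles. Per the file headers, each of the 3 tables is a DESeq2 result that the authors made for 1 cell type. Its base mean is a signal the authors obtained by averaging normalised counts over libraries. The fold change and its SE are deposited on the log2 scale, the Wald value is a score the authors derived from both, and a p-value with its adjusted form is deposited beside them. The Wald score equalled the log2 fold change over its SE, and the adjusted p a Benjamini-Hochberg adjustment, in all tested rows within a relative tolerance of 1e-06. The depth of single libraries is not known from the sources used here. In rows with a base mean under 1, absolute log2 fold changes reached only 0.25, 0.42 and 0.37 in ESCs, macrophages and NPCs. Whether the authors shrank fold changes is not stated, and values of rows with few reads may be closer to 0 for this. The sizes of changes and the differences between cell types given here rest on the fold changes as deposited.

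Computed here with Python 3.11.15 and scipy 1.17.1 were 95% intervals, shares of base mean and differences between tables, the last tested on simulated data. The simulation drew independent normal errors from the same SEs that the test uses. It therefore checks the calculation, and not the deposited SEs, reads shared between rows or the orientation. The tables give the authors' comparisons and no values per library, so their adjusted p under 0.05 is the main test in place of a count model. The IAPEY rows were taken by name, while the lists set beside them and the tests were chosen with earlier results of these data known. All IAPEY rows are named. Outside the group the rule names IAPEz-int, 4 further IAP rows, the IAP rows of smallest adjusted p, MURVY rows, and the 3 rows nearest to each of the 2 IAPEY rows with the smallest adjusted p. Of the rows this rule covers, IAPLTR1_Mm, IAPLTR2_Mm, IAP1-MM_LTR and IAPLTR3-int are not described. Sequences of the elements were not used here.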

Additional observations from a re-analysis of the deposited data

Results flagged for a closer look

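The 11 differences between cell types that passed the test of the difference were singled out for a closer look, with values on the log2 scale and the tables taken as oriented alike. For ESCs minus macrophages they were 0.70 for IAPEY_LTR, 0.68 for IAPEY3C_LTR, 1.27 for IAPEY4_I-int and 0.78 for IAPEY5_I-int. For ESCs minus NPCs they were 0.65 for IAPEY_LTR, 0.80 for IAPEY2_LTR and -1.11 for IAPEY3C_LTR. For macrophages minus NPCs they were -0.84 for IAPEy-int, -0.82 for IAPEY3-int, -1.79 for IAPEY3C_LTR and -0.86 for IAPEY4_I-int. The share of the group's base mean also differed between the tables, at 71.4% in ESCs and 1.35% in macrophages for IAPEy-int, and the part of this in the differences was not tested.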

How the results depend on the processing

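Of the calls per cell type, the ESC count of 5 was 3 at an adjusted p under 0.01, against 184 of all 1132 tested rows. It was 1 of 10 with an absolute log2 fold change of at least 0.5 required as well. That is near the background of 132 of 1132 rows. The NPC count of 4 was 2 at 0.01, against 95 of 1249 rows. It stayed 4 with the minimum fold change, against 140 of 1249. The macrophage count of 2 held under all 6 alternatives. Of all 1255 tested macrophage rows, 237 were called at 0.01 and 176 with the minimum fold change. With centring on the median row, IAPEY2_LTR in macrophages changed from -0.0004 to 0.012, never called. Of the differences between cell types, the count for ESCs and macrophages (4) was 2 at 0.01, against 183 of 1124 rows. That for ESCs and NPCs (3) was 1, against 95 of 1126 rows. Turning the sign of 1 table gave 2 for ESCs and macrophages, and these were other rows, IAPEY3_LTR (0.57) and IAPEY3-int (0.46), with none of the 4 original ones. It turned the direction for IAPEY_LTR (-0.50), IAPEY4_I-int (-0.15) and IAPEY5_I-int (-0.019) between ESCs and macrophages. Between ESCs and NPCs it did so for IAPEY_LTR (-0.45), IAPEY2_LTR (-0.30) and IAPEY3C_LTR (1.93). Between macrophages and NPCs it did so for IAPEy-int (0.58), IAPEY3-int (0.99) and IAPEY3C_LTR (1.25). The other pairs also held rows that passed the difference test only when turned. For ESCs and NPCs these were IAPEY3-int (1.28, adjusted p 3.3e-09), IAPEy-int (0.84, 0.00807) and IAPEY4_I-int (0.71, 0.00628). For macrophages and NPCs it was IAPEY_LTR (-1.15, 3.1e-04). A base mean of at least 50 removed 3 rows in macrophages and ended none of the 11 calls within tables. Between tables it gave 3 for ESCs and macrophages, against 227 of 743 rows, since IAPEY5_I-int was no longer tested. For ESCs and NPCs it gave 4, against 118 of 763 rows, and IAPEY3-int passed (adjusted p 0.0478). No paired analysis was possible because the tables hold no values per library; leaving out single libraries was not run for the same reason.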
